A study of Mus musculus with 29 samples.

Results

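The genes described here encode structural proteins of the photoreceptor outer segment and of the matrix around it, and their RNA was followed across sorted cell populations of the adult mouse retina. They were chosen by name and make up 10 of the 24062 genes in the RNA-seq table, and all 10 passed the filter on low values that left 14024 genes to test. The measured populations were all bipolar cells together (pan-BC), the ON and OFF kinds of bipolar cell apart (ON-BC and OFF-BC), rods, and photoreceptors lacking *Nrl* that stand in for blue cones, each with 3 RNA-seq libraries. Chromatin accessibility was measured by ATAC-seq in 2 libraries of each of these populations and in 2 of green cones, and each library was described as a separate biological replicate.

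Pan-BC for RNA-seq came from Otx2-GFP+/- mice at postnatal day 44 to 47. ON-BC and OFF-BC came from Otx2-GFP+/-; Grm6-YFP+/+ mice at day 42 to 48 for RNA-seq and day 42 to 46 for ATAC-seq, and the pan-BC libraries for ATAC-seq carry the same genotype in the labels at day 43 to 44. GFP sits in the *Otx2* locus of these heterozygous mice, and the same locus gives photoreceptors a weak GFP signal. The YFP transgene uses the *Grm6* promoter, and OFF-BC were the only bipolar cells sorted a second time. Each ON-BC or OFF-BC RNA library pooled the retinas of several animals. Rods were from Nrl-eGFP mice, blue cones from Nrl-eGFP;NrlKO mice and green cones from Opn1mw-GFP mice, all at day 56 and all re-analysed from an earlier study. Class, study and age therefore cannot be told apart wherever bipolar cells are set against photoreceptors. Blue cones are modelled by cells that would have become rods if *Nrl* had been present. Reads per library, recovered from the normalized values, ran from 12329548 to 26266746 for RNA-seq and from 4176776 to 12345845 for ATAC-seq.

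The outer segment is a modified cilium packed with membrane discs that carry the visual pigment. PRPH2 and ROM1 are tetraspanins that bend the disc rim, and PROM1, CDHR1 and FSCN2 act where new discs grow from the base. RP1 and RP1L1 bind the microtubules of the axoneme, the core of the cilium, and TULP1 is needed to move membrane proteins from the inner to the outer segment. IMPG1 and IMPG2 are proteoglycans of the interphotoreceptor matrix, the material around the outer segments. Bipolar cells, the interneurons that photoreceptors drive, build no outer segment, and loss of many of these genes leads to retinal degeneration.

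The start sites of the members are shown first because accessibility was compared there. The 250 bases before the RefSeq start site (GRCm38.p6) were held for 8 of the 10 members, with *Prom1* having 2 start sites, and *Rp1* and *Rp1l1* were not matched. Capitals mark TAATC or its reverse complement GATTA, a core that the photoreceptor and bipolar factors CRX and OTX2 bind, and each sequence runs 5′ to 3′ on the strand of the gene. *Prph2* and *Impg1* are printed as the members with the most such cores, and *Rom1*, *Cdhr1* and *Fscn2* as members without any whose RNA levels stood out below.
Prph2, chr17:46910228-46910477, plus strand: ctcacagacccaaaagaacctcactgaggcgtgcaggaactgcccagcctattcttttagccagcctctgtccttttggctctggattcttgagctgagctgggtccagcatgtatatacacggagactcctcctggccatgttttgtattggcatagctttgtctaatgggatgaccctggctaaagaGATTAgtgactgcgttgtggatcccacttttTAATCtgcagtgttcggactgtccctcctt
Impg1, chr9:80465439-80465688, minus strand: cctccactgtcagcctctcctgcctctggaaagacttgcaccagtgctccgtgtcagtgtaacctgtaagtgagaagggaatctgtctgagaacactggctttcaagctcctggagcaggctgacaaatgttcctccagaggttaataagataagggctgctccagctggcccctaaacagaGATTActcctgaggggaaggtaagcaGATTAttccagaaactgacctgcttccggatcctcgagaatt
Rom1, chr19:8929357-8929606, minus strand: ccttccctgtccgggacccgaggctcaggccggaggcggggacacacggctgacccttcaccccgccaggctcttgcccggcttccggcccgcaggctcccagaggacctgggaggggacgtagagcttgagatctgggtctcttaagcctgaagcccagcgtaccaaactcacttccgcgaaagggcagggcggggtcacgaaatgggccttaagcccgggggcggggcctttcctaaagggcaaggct
Cdhr1, chr14:37098348-37098597, minus strand: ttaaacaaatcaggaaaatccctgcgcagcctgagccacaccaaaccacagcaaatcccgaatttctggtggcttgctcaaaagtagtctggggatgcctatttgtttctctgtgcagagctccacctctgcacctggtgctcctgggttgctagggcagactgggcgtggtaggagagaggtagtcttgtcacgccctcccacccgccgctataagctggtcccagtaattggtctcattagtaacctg
Fscn2, chr11:120361284-120361533, plus strand: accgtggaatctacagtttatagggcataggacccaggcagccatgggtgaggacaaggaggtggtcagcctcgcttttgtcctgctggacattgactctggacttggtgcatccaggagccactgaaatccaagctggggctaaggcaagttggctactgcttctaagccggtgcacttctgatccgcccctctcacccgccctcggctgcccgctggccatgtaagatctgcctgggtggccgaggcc

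On both strands, TAATC was found in 4 of the 9 member windows, against 19.8% of all 32851 windows of the same length. *Prph2* and *Impg1* held 2 copies each, and *Impg2* and the second *Prom1* window held 1 each. TAATT, a core bound by other homeodomain factors and counted on both strands where it lies in TAATTA, was in 4 of 9 windows against 25.0% of all. TGCTGA, part of the site of the rod factor NRL, was in 0 of 9 against 16.1%, and the E-box CAGATG was in 1 of 9, that of *Impg2*, against 14.4%. These are matches of letters in a short window and not measured binding.

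Pan-BC had less RNA than rods of all 10 members, by 5.91-fold for *Cdhr1* to 177-fold for *Fscn2* in normalized counts. Against blue cones 9 of 10 were lower in pan-BC, by 7.63-fold for *Fscn2* to 79.8-fold for *Prom1*, and *Rom1* missed the threshold. Between ON-BC and OFF-BC only *Prph2* passed the test, and rods and blue cones differed in 4 members, with *Rom1*, *Rp1* and *Fscn2* higher in rods and *Cdhr1* higher in blue cones. Values are counts divided by the authors' size factor of each library, here called normalized counts. Differences were tested with limma on log2(normalized count + 1) against a log2 fold change of 1, adjusted by the Benjamini-Hochberg method over all genes tested, and are called at an adjusted p under 0.05. The 1 added before the logarithm makes the log2 difference of a low gene smaller than its ratio of counts. Each SE and p-value rests on 1 estimate of spread per gene, shared over all 15 libraries. It is therefore not the spread of only the populations compared, and a library that stands apart in any population widens it.

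**Figure D1:**
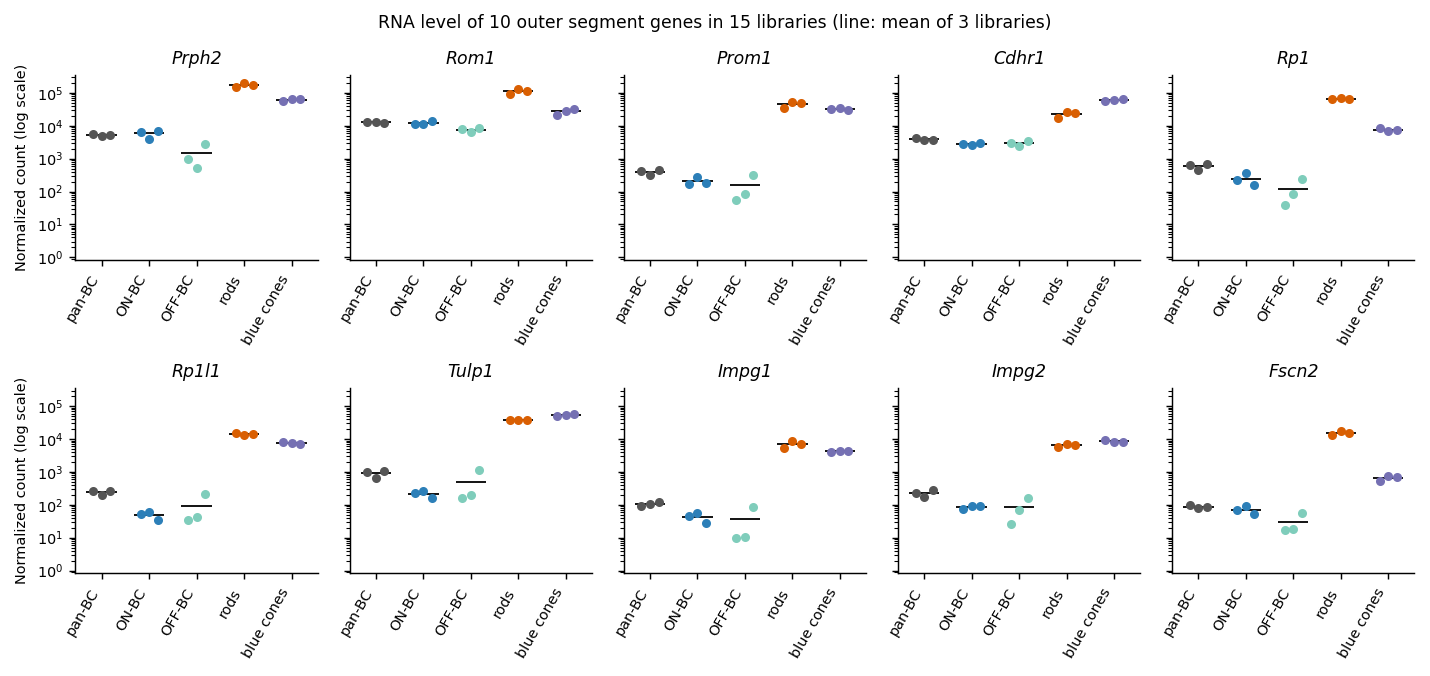
Normalized RNA count (log scale) of each outer segment gene in the 15 RNA-seq libraries, with 1 point per library and a line at the mean of each population of 3. All 10 genes sit higher in rods and blue cones than in any bipolar population, and the third OFF-BC library lies above the other 2 for most genes.

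Of the disc rim genes, *Prph2* had 153440.0, 200802 and 173488 normalized counts in the 3 rod libraries, and 54838, 65151 and 67370.2 in blue cones. Pan-BC libraries had 5438, 4862 and 5149, ON-BC libraries 6629, 3904 and 6990.3, and OFF-BC libraries 994, 511 and 2878. The 3 OFF-BC libraries lay below every other library, the ON-BC range enclosed that of pan-BC, and no bipolar library reached a photoreceptor library. The log2 difference between pan-BC and rods was -5.09 ± 0.40 (SE, adjusted p = 7.12e-08), and that between pan-BC and blue cones was -3.60 ± 0.40 (adjusted p = 2.29e-05).

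*Rom1*, the partner of *Prph2* at the rim, had 93832, 127393 and 110889 normalized counts in the rod libraries and 21702, 28646 and 31977 in those of blue cones. Pan-BC libraries had 12631, 13233 and 11929.5, ON-BC libraries 11426, 11709 and 14074, and OFF-BC libraries 7794, 6318 and 8595. Pan-BC and ON-BC overlapped, all OFF-BC libraries were lower, and the lowest blue cone library lay above the highest pan-BC library. The difference between pan-BC and rods was -3.13 ± 0.17 on the log2 scale (SE, adjusted p = 6.58e-09). Against blue cones it was -1.11 ± 0.17 (adjusted p = 0.576), which did not pass the test against a log2 fold change of 1, while the test against 0 gave an adjusted p of 2.20e-05. Its mean in rods was 4.03 times that in blue cones.

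Among the genes of the disc base, *Cdhr1*, a protocadherin, had 57041, 59898 and 65026 normalized counts in blue cones and 17195, 27093 and 23979 in rods. Pan-BC libraries had 4118, 3676 and 3748, ON-BC libraries 2864, 2542 and 3074, and OFF-BC libraries 2933, 2363 and 3457. Blue cones were highest, ON-BC and OFF-BC overlapped, and pan-BC lay above both. *Cdhr1* showed the smallest margin of the 10 members between pan-BC and rods, with a log2 difference of -2.54 ± 0.16 (SE, adjusted p = 1.60e-07), and was lower than in blue cones by a log2 difference of -3.98 ± 0.16 (adjusted p = 9.68e-11).

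*Prom1*, a pentaspan protein of nascent discs, had 34457, 54033 and 48514 normalized counts in the rod libraries and 32303, 33686 and 30752 in those of blue cones. Pan-BC libraries had 435, 312 and 465, ON-BC libraries 166, 286 and 176, and OFF-BC libraries 54.8, 85.3 and 318. Pan-BC lay above ON-BC, while ON-BC and OFF-BC overlapped through the third OFF-BC library. The log2 differences of pan-BC were -6.81 ± 0.42 from rods (SE, adjusted p = 1.42e-09) and -6.34 ± 0.42 from blue cones (adjusted p = 8.90e-09).

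*Fscn2*, an actin-bundling protein of the retina, had 13480.5, 17152 and 15682 normalized counts in rods but 542, 739.8 and 713 in blue cones. Pan-BC libraries had 95.7, 82.7 and 83.2, ON-BC libraries 68.1, 93.1 and 54.4, and OFF-BC libraries 16.8, 18 and 55.2. Rods stood far above all other libraries, blue cones came next, and the bipolar populations overlapped in part. *Fscn2* had the largest difference of the 10 between pan-BC and rods, at -7.45 ± 0.32 on the log2 scale (SE, adjusted p = 1.14e-11), and a smaller one from blue cones at -2.91 ± 0.32 (adjusted p = 5.72e-05).

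Of the axonemal genes, *Rp1* had 65419, 70526 and 63222 normalized counts in the rod libraries and 8549, 6831 and 7298 in those of blue cones. Pan-BC libraries had 654, 455 and 664, ON-BC libraries 224, 357 and 162, and OFF-BC libraries 38.0, 85.3 and 247. The order was rods, blue cones, pan-BC and then the other bipolar populations, which overlapped. Its log2 difference between pan-BC and rods was -6.83 ± 0.44 (SE, adjusted p = 2.06e-09).

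*Rp1l1*, the relative of *Rp1*, had 15304, 13355 and 14502 normalized counts in the rod libraries and 8376, 7439 and 6950.0 in those of blue cones. Pan-BC libraries had 265, 205 and 272, ON-BC libraries 53.7, 60.7 and 34.9, and OFF-BC libraries 33.5, 43.3 and 209. Pan-BC was above ON-BC, and OFF-BC overlapped both. The log2 difference between pan-BC and rods was -5.87 ± 0.44 (SE, adjusted p = 2.12e-08).

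*Tulp1* had its highest level in blue cones, at 50524, 55203 and 59354 normalized counts, above 38509.7, 38304 and 39181 in rods. Pan-BC libraries had 975, 675 and 1077, ON-BC libraries 236, 259 and 160.1, and OFF-BC libraries 156, 193 and 1179. The third OFF-BC library exceeded every pan-BC library, while the other 2 fell within or just below the ON-BC range. The log2 differences of pan-BC were -5.44 ± 0.49 from rods (SE, adjusted p = 2.70e-07) and -5.94 ± 0.49 from blue cones (adjusted p = 1.24e-07).

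The matrix genes were the lowest of the members in photoreceptors per kilobase of exon, apart from *Fscn2*, *Rp1* and *Rp1l1* in blue cones. *Impg1* had 5229.6, 8448 and 7069.7 normalized counts in the rod libraries and 4175, 4199 and 4316 in those of blue cones. Pan-BC libraries had 89.3, 103 and 121, ON-BC libraries 46.4, 56.8 and 28.7, and OFF-BC libraries 10.1, 10.8 and 87.2. *Impg1* was higher in every rod library than in any blue cone library and overlapped between ON-BC and OFF-BC. For *Impg2*, rod libraries had 5947, 7248 and 6843 and blue cone libraries 9177, 7929.7 and 8309.6. Pan-BC libraries had 227, 172 and 277, ON-BC libraries 73.3, 93.1 and 90.3, and OFF-BC libraries 26.8, 68.5 and 161. It was lower in every rod library than in any blue cone library, and again overlapped between ON-BC and OFF-BC. The log2 differences of pan-BC from rods were -6.02 ± 0.53 for *Impg1* (SE, adjusted p = 1.78e-07) and -4.91 ± 0.39 for *Impg2* (SE, adjusted p = 9.41e-08).

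Divided by the exon length of each gene, so that genes can be compared with each other, mean normalized counts per kilobase in rods were led by *Rom1* at 72546 and *Prph2* at 66482, followed by *Tulp1* at 18544 and *Prom1* at 11119.6, and were lowest for *Impg2* at 966. In blue cones the order was *Tulp1* at 26392, *Prph2* at 23603, *Rom1* at 17983 and *Cdhr1* at 13976, and *Fscn2* was lowest at 387. In pan-BC *Rom1* stood at 8255 per kilobase, 69.8% of the sum over the 10 members, followed by *Prph2* at 1946 and *Cdhr1* at 886, and the other 7 ran from 29.1 for *Impg1* to 436 for *Tulp1*. The members differed in rank between populations as well as in level, with *Cdhr1* above *Tulp1* in pan-BC and below it in rods and blue cones.

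The counts of called members are read against all genes. Between pan-BC and rods 43.6% of genes were called and 15.8% were called lower in pan-BC, against 10 of 10 members, and the median log2 difference was -5.65 over the members and 0.21 over all genes. Between pan-BC and blue cones 36.3% of genes were called and 13.7% were called lower, against 9 of 10 members, with medians of -4.46 and 0.16. In both comparisons the groups did not overlap for all 10 members, as was so for 83.7% and 78.4% of all genes tested. Both comparisons share the pan-BC libraries. In bulk libraries fewer cells of a type and less RNA per cell cannot be told apart.

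**Figure D2:**
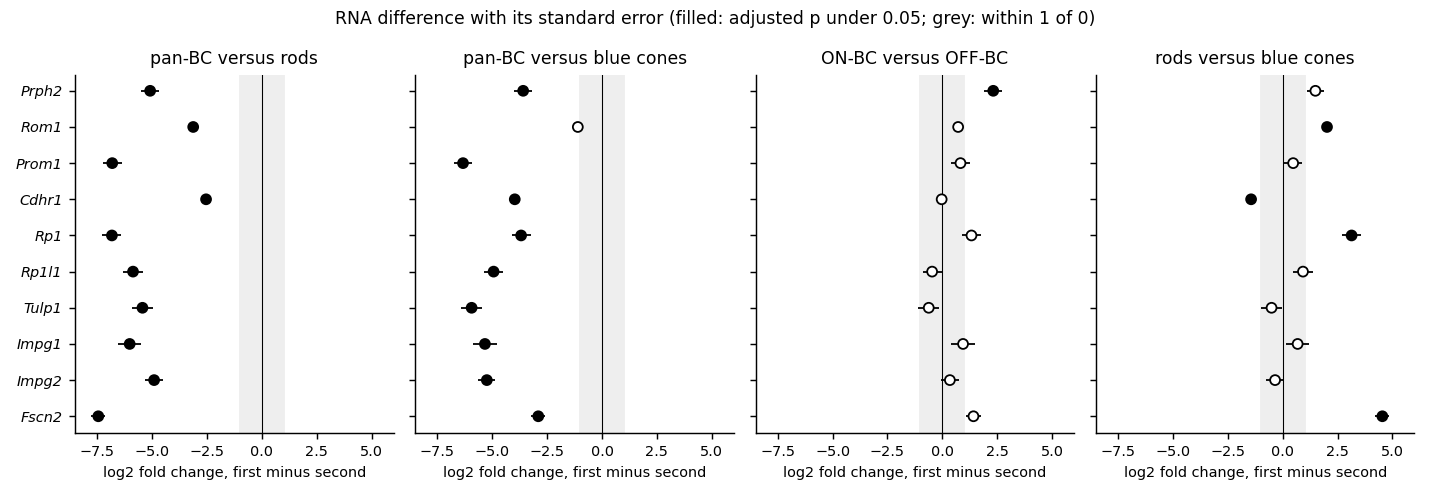
Log2 fold change of each outer segment gene (points, first population minus second) with its standard error (bars) in the 4 comparisons, filled where the adjusted p was under 0.05, with a grey band from -1 to 1. All 10 points are filled and negative for pan-BC against rods, and between ON-BC and OFF-BC only *Prph2* is filled.

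Rods and blue cones differed in 4 of the 10 members, where 15.9% of all genes were called, 4.63% higher in rods and 11.3% lower. *Fscn2* was 23.2-fold higher in rods (log2 difference 4.54 ± 0.32, adjusted p = 9.89e-08), *Rp1* was 8.78-fold higher (3.14 ± 0.44, adjusted p = 0.000783) and *Rom1* was 4.03-fold higher (2.02 ± 0.17, adjusted p = 0.000143). *Cdhr1* was 2.67-fold higher in blue cones (log2 difference -1.44 ± 0.16, adjusted p = 0.0487). This last call was lost in 9 of 15 alternatives, with adjusted p from 1.07e-06 to 0.298, among them the fits without rod replicate 1 (0.298), rod replicate 3 (0.0589) and each blue cone library (0.0501, 0.0935 and 0.141). *Prph2* was 2.82-fold higher in rods and did not pass (1.49 ± 0.40, adjusted p = 0.514), and *Prom1*, *Rp1l1*, *Tulp1*, *Impg1* and *Impg2* had log2 differences between -0.51 and 0.92 with adjusted p of 1. The groups did not overlap for any of the 10 members, which held for 60.9% of all genes. *Nrl* itself, the gene removed in the blue cone model, had 11476 to 16599 normalized counts in the rod libraries and 486 to 764 in those of blue cones.

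*Prph2* was 4.0-fold higher in ON-BC than in OFF-BC (log2 difference 2.32 ± 0.40, adjusted p = 0.0376), the only member called, where 6.55% of all genes were called and 2.95% were called higher in ON-BC. Its ON-BC libraries (3904 to 6990.3) all exceeded its OFF-BC libraries (511 to 2878). *Rom1* also did not overlap, at 11426 to 14074 in ON-BC and 6318 to 8595 in OFF-BC, but its log2 difference of 0.72 ± 0.17 did not exceed 1 (adjusted p = 1), and 42.2% of all genes did not overlap between these groups. The other 8 members had log2 differences between -0.62 for *Tulp1* and 1.42 for *Fscn2*, none of which passed. The *Prph2* call was lost without ON-BC replicate 1 (adjusted p = 0.145) or 3 (0.158) and without OFF-BC replicate 1 (0.143) or 2 (0.254), as well as with DESeq2, with no filter on low values and with only the populations compared, and its adjusted p over 15 alternatives ran from 4.34e-05 to 0.424.

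OFF-BC replicate 3 stood apart from the other OFF-BC libraries. In it 8 of the 10 members were over 3 times as high as in the mean of the other 2, from 3.17 times for *Fscn2* to 6.74 for *Tulp1* and 8.35 for *Impg1*, while *Rom1* was 1.22 times and *Cdhr1* 1.31 times as high. Of 10 cone markers, 5 were over 3 times as high, among them the blue opsin *Opn1sw* at 4477, 4314 and 55813 normalized counts and the cone phosphodiesterase *Pde6c* at 71.5, 121 and 809.9. Of 13 rod markers, 2 were over 3 times as high (*Sag* and *Pde6g*). Of 11 bipolar markers, 3 were over 3 times as high: *Grm6*, *Prkca* and *Isl1*, each higher in every ON-BC than in every OFF-BC library. The other bipolar markers ran from 0.650 times for the OFF kainate receptor *Grik1* to 1.41 times for *Pcp2*. The part of cones, rods or ON bipolar cells in the level of the members was not tested.

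Without OFF-BC replicate 3, 4 members were called between ON-BC and OFF-BC, all higher in ON-BC, where 869 of all 14024 genes were called. They were *Prph2* (log2 difference 2.99 ± 0.26, adjusted p = 4.34e-05), *Fscn2* (1.95 ± 0.21, adjusted p = 0.00412), *Impg1* (1.92 ± 0.24, adjusted p = 0.0170) and *Rp1* (2.02 ± 0.30, adjusted p = 0.0350). Rod markers moved the same way with all libraries included, with 9 of 13 called higher in ON-BC and 0 lower. Cone markers moved the other way, with 8 of 10 called lower in ON-BC and only *Gnb3* called higher, and *Opn1sw* had 447 to 822 in ON-BC. OFF-BC had been sorted a second time and ON-BC once, so the number of sorts and the population cannot be told apart, and the part of either marker list in the difference of the members was not tested.

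Since rod and cone markers were detected in every bipolar library, each level is also given as a percent of its mean in rods or blue cones. Over pan-BC, ON-BC and OFF-BC in that order, *Cdhr1* reached 16.9%, 12.4% and 12.8% of its rod level, and *Rom1* reached 11.4%, 11.2% and 6.84%. *Prph2* reached 2.93%, 3.32% and 0.830%, and the other 7 reached at most 3.37%, the value of *Impg2* in pan-BC. *Cdhr1* and *Rom1* were thus the members closest to their rod level in bipolar cells.

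The 13 rod markers, measured the same way, had medians per library of 0.800% to 1.10% for pan-BC, 0.820% to 0.987% for ON-BC and 0.102% to 0.171% for OFF-BC. The highest was *Gngt1*, the rod transducin gamma subunit, at 5.94% to 10.5% over the 9 bipolar libraries. *Cdhr1* lay above every rod marker in 9 of 9 bipolar libraries and *Rom1* in 7 of 9, the exceptions being OFF-BC replicates 2 and 3. None of the 13 rod markers was at 0 in any bipolar library, and their summed level ran from 50807 to 60996 normalized counts for pan-BC, 38588 to 43430 for ON-BC and 16875 to 53824 for OFF-BC, against 3134660 to 4379340 in rods.

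As a percent of the blue cone level, *Rom1* stood at 45.9%, 45.2% and 27.6% over the same populations. Of the 10 cone markers the highest in pan-BC and ON-BC was *Gnb3*, at 34.8% to 50.5%. *Gnb3* encodes a G-protein beta subunit that ON bipolar cells use themselves, and the highest of the other 9 was *Gngt2*, at 18.2% to 20.3% for pan-BC and 4.67% to 5.55% for ON-BC. *Rom1* lay above every cone marker in the 6 of 6 pan-BC and ON-BC libraries. In OFF-BC *Gngt2* was the highest, at 40.6% to 63.0%, and lay above *Rom1*. *Cdhr1* reached 6.34%, 4.66% and 4.81% of its blue cone level and *Fscn2* 13.1%, 10.8% and 4.51%, both within the range of the 10 cone markers, for *Fscn2* in ON-BC through *Gnb3* alone. None of the 10 cone markers was at 0, and their sum was 120688 to 149923 for pan-BC, 88855 to 114904 for ON-BC and 40733 to 125170 for OFF-BC, against 1745430 to 1969990 in blue cones. *Gnb3* made up 83169 to 108739 of the sum in ON-BC, where the other 9 together had 5687 to 6464, against 45706 to 72180 for pan-BC and 31756 to 106930 for OFF-BC.

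**Figure D3:**
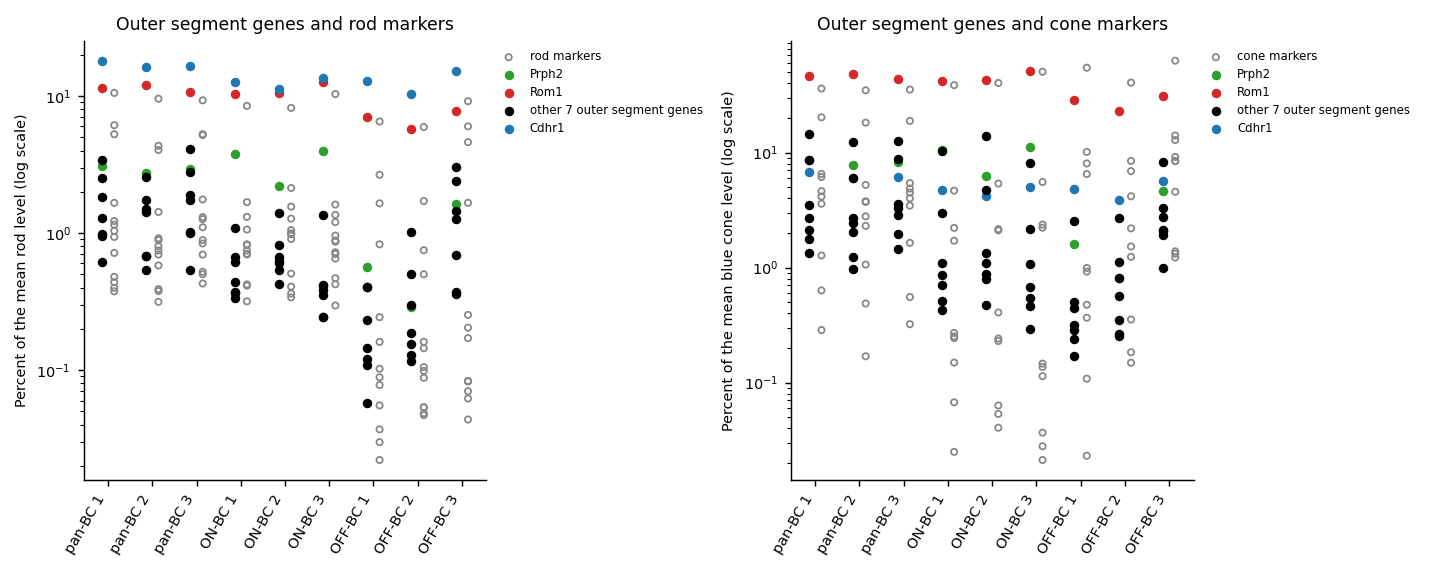
Level in each bipolar library as a percent (log scale) of the mean rod level (left) or mean blue cone level (right) for the outer segment genes (filled) and 13 rod or 10 cone markers (open). *Cdhr1* lies above all rod markers in all 9 bipolar libraries, and *Rom1* above all cone markers in the pan-BC and ON-BC libraries.

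The study set aside genes over 16-fold higher in photoreceptors when it compared ON-BC with OFF-BC, and used another rule for pan-BC. With that limit applied here to the larger of the rod and blue cone ratios, and to pan-BC as well, 8 of the members were above 16-fold in each of pan-BC, ON-BC and OFF-BC. *Rom1* was below it in all 3, with a larger ratio of 8.79, 8.93 and 14.6 over pan-BC, ON-BC and OFF-BC, each against rods. *Cdhr1* was just below it in pan-BC at 15.8 and above it in ON-BC at 21.5 and OFF-BC at 20.8, each against blue cones.

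The bipolar libraries carried the markers of their labels. The ON receptor *Grm6* was higher in every ON-BC than in every OFF-BC library, and the OFF kainate receptor *Grik1* the other way. Summed levels of 11 bipolar markers were 205831 to 229423 for pan-BC, 223343 to 229605 for ON-BC and 130559 to 158435 for OFF-BC. They were 8343 to 9405 in rods and 33018 to 38273 in blue cones, where *Cabp5* alone had 25242 to 29460. The list also holds *Otx2*, which the paper describes as expressed in both photoreceptors and bipolar cells. The mean of *Otx2* in OFF-BC replicates 1 and 2 was 161% of its rod mean and 164% of its blue cone mean. The sums in photoreceptors are therefore not sums of genes specific to bipolar cells. Over the bipolar libraries, 6 Muller glia markers summed to 1188 to 2229 and 5 amacrine markers to 226 to 925. The 5 markers of the pigment epithelium, which engulfs outer segment tips, summed to at most 97.9 in any pan-BC library.

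Other genes of the outer segment, connecting cilium and matrix formed a list of 24, of which 22 were tested (*Vcan* and *Hapln1* were not). Between pan-BC and rods 14 were lower in pan-BC and 0 higher, against 15.8% and 27.8% of all genes, with a median log2 difference of -2.83. Among the largest were those of *BC027072*, a ciliary protein of the disc base (-7.04 ± 0.80, adjusted p = 2.62e-06), and of the polarity gene *Crb1* (-6.32 ± 0.47, adjusted p = 1.94e-08). Against blue cones 12 were lower and 1 higher, against 13.7% and 22.7% of all genes, with a median of -2.00, among them *BC027072* (-6.78 ± 0.80) and *Crb1* (-5.90 ± 0.47). The gene higher in pan-BC was the kinesin *Kif17* (1.86 ± 0.25, adjusted p = 0.00514).

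Between ON-BC and OFF-BC, 4 of these 22 genes were called, all lower in ON-BC as were 3.6% of all genes, with a median of -0.10. *Rbp3*, the retinoid carrier of the matrix, had 2267, 1999.8 and 1599 normalized counts in the ON-BC libraries and 11295, 8316 and 10863 in those of OFF-BC (log2 difference -2.38 ± 0.16, adjusted p = 9.88e-06). *Rpgrip1*, a protein of the connecting cilium, had 344, 375 and 309.9 against 1423, 2356 and 1666 (-2.37 ± 0.24, adjusted p = 0.000489). The disc protein *Prcd* (-1.96 ± 0.18, adjusted p = 0.000964) and the disc transporter *Abca4* (-1.58 ± 0.13, adjusted p = 0.00523) were called too. Every OFF-BC library exceeded every ON-BC library for these 4 genes, and OFF-BC replicate 3 was not set apart for *Rbp3*, *Rpgrip1* or *Abca4*, at 0.882 to 1.11 times the mean of the other 2. The direction is opposite to that of *Prph2* and the same as that of the cone markers, of which 8 of 10 were called lower in ON-BC, among them the cone transducin subunit Gnat2 (-2.37 ± 0.15, adjusted p = 4.87e-06). The cone markers were not alike in OFF-BC. In the mean of OFF-BC replicates 1 and 2, *Gngt2*, *Gnat2* and *Cngb3* stood at 47.7%, 9.30% and 7.47% of their blue cone level. *Opn1sw*, *Pde6c* and *Cnga3* stood at 0.360%, 0.146% and 0.0859%, and the others lay between 0.857% for *Opn1mw* and 5.34% for *Gnb3*. The part of the cone markers in the differences of the 4 genes was not tested.

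Rods and blue cones differed in 3 of the 22, a share near the 15.9% of all genes called, with a median of 0.47. *Cngb1*, the rod cGMP-gated channel subunit, was higher in rods (6.37 ± 0.24, adjusted p = 8.48e-12), as was *Arl13b*, a small GTPase of cilia (2.58 ± 0.17, adjusted p = 6.27e-07), and *Rbp3* was lower (-1.72 ± 0.16, adjusted p = 0.00196). Like *Cdhr1*, *Rbp3* was therefore higher in blue cones than in rods.

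Paralogs of the members were read in the same way. Of 14 in the table, 9 were tested, and between pan-BC and rods 5 were higher in pan-BC, as were 27.8% of all genes, and 1 was lower. *Fscn1*, the widely expressed fascin, had 4168, 3429 and 4109.9 normalized counts in pan-BC and 109.6, 133 and 137 in rods (log2 difference 4.94 ± 0.15, adjusted p = 3.37e-13), the reverse of *Fscn2*. *Cdhr3*, a relative of *Cdhr1*, had 40.4, 29.3 and 23.2 in pan-BC and 0 in every rod library, at least 10.1-fold higher against a floor of 3 reads per library. *Tub*, a relative of *Tulp1*, was lower in pan-BC (-3.87 ± 0.19, adjusted p = 3.99e-10). The median over the 9 was 3.49, and 2.06 with genes at 0 set to their bound.

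Against blue cones 4 paralogs were higher in pan-BC, as were 22.7% of all genes, and 2 lower, with a median of 1.15. *Fscn1* (4.30 ± 0.15, adjusted p = 1.16e-11) and *Cdhr3* (4.26 ± 0.56, adjusted p = 6.47e-05) were again higher, and *Dcx*, a relative of the doublecortin domain of *Rp1*, was at least 5.94-fold higher, as it was at 0 in every blue cone library. Of 9 paralogs, 0 were called by limma or by edgeR when ON-BC was set against OFF-BC, with 1, *Cdhr3*, at an unadjusted p under 0.05. Between rods and blue cones 3 were called: *Tub* was higher in rods (1.66 ± 0.19, adjusted p = 0.0108), *Tulp3* was higher in blue cones (-2.64 ± 0.35, adjusted p = 0.00116), and *Tspan11*, at 0 in every rod library, was at least 6.81-fold higher in blue cones.

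For each member, the tested genes whose population means followed the most similar course were found by the root mean square difference of centred log2 means over the 5 populations. *Rom1* was followed most closely by *Zbtb6* (0.11), *Cdhr1* by *Itga4* (0.14), *Rp1l1* by *Ppm1n* (0.19), *Prph2* by *Ttc18* (0.21), *Impg2* and *Tulp1* by *Rgs20* (0.28 and 0.30), *Impg1* by *Nxnl2* (0.33), *Rp1* by *Guca1b* (0.36) and *Fscn2* by *Nrl* (0.39). The next in order were *Zbtb1* for *Rom1* (0.16), *Msi1* for *Cdhr1* (0.17), *Alpl* for *Prph2* (0.30), *Gpr152* for *Prom1* (0.31), *Casz1* for *Rp1l1* (0.31), *Lrguk* for *Impg2* (0.33), *Prom1* for *Impg1* (0.35), *Sgk1* for *Rp1* (0.38), *Crb1* for *Tulp1* (0.40) and *Reep6* for *Fscn2* (0.40). Another member was among the 12 nearest genes for 7 of the 10, whereas the nearest member ranked 140 for *Prph2* (*Impg2*), 1732 for *Cdhr1* (*Rom1*) and 4747 for *Rom1* (*Cdhr1*). *Rom1* and *Cdhr1* thus had no other member near them by this measure. *Nrl*, the gene nearest to *Fscn2*, is the gene removed in the blue cone model. Its blue cone level in this measure is therefore that of a knocked-out gene.

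Accessibility was measured in regions of 200 bases, and 82 were assigned to a member. Of these, 12 lay from 1000 bases before to 100 bases after a start site of a member, whichever gene was nearest. The others lay nearest to a start site of a member, within 50000 bases. Values are normalized ATAC counts, and coordinates are GRCm38. Between pan-BC and rods 56 of 81 tested regions were called, 52 lower and 4 higher in pan-BC, where 51.6% of all 108448 regions were called, 11.2% lower and 40.3% higher. At the start sites 11 of 12 were lower, against 13.8% of all regions at start sites, and the median log2 difference of the 81 regions was -2.80, against 1.16 over all regions.

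The *Prph2* start-site region (chr17:46910312-46910511) had 675 and 694 normalized ATAC counts in the rod libraries, 291 and 238 in those of blue cones and 271 and 269 in those of green cones. Pan-BC libraries had 48.8 and 51.9, ON-BC libraries 28.4 and 39.5, and OFF-BC libraries 43.1 and 62.3. Rods were highest, both kinds of cones overlapped, and every bipolar library lay below the cones. Its log2 difference between pan-BC and rods was -3.74 ± 0.23 (SE, adjusted p = 2.58e-08).

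The *Rom1* start-site region (chr19:8929226-8929425, over the first exon) had 991 and 1011 in the rod libraries, 413 and 283 in those of blue cones and 373 and 313 in those of green cones. Pan-BC libraries had 90.4 and 105, ON-BC libraries 88.1 and 84.9, and OFF-BC libraries 105 and 154. Pan-BC lay below rods (-3.34 ± 0.21, adjusted p = 5.71e-08) and below blue cones (-1.80 ± 0.21, adjusted p = 0.00337), although the RNA of *Rom1* did not pass the test against blue cones. The second *Rom1* window, at position -552, lies in the divergent gene *Eml3* and was the start-site region not called between pan-BC and rods (-1.93 ± 0.45, adjusted p = 0.0509).

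The *Cdhr1* start-site region (chr14:37098251-37098450) had 625 and 651 in the rod libraries, 276 and 241 in those of blue cones and 304 and 270.4 in those of green cones. Pan-BC libraries had 159 and 225, ON-BC libraries 182 and 212, and OFF-BC libraries 104 and 128. It differed least of the 11 called start-site regions between pan-BC and rods (-1.75 ± 0.19, adjusted p = 0.00157), and its pan-BC level was not called against blue cones (-0.44 ± 0.19, adjusted p = 1) although the RNA of *Cdhr1* was 15.8-fold higher in blue cones. Rods were higher than blue cones in this region (1.30 ± 0.19, adjusted p = 0.331, not called), whereas the RNA was lower in rods. RNA and accessibility of *Cdhr1* did not follow the same order of populations.

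**Figure D4:**
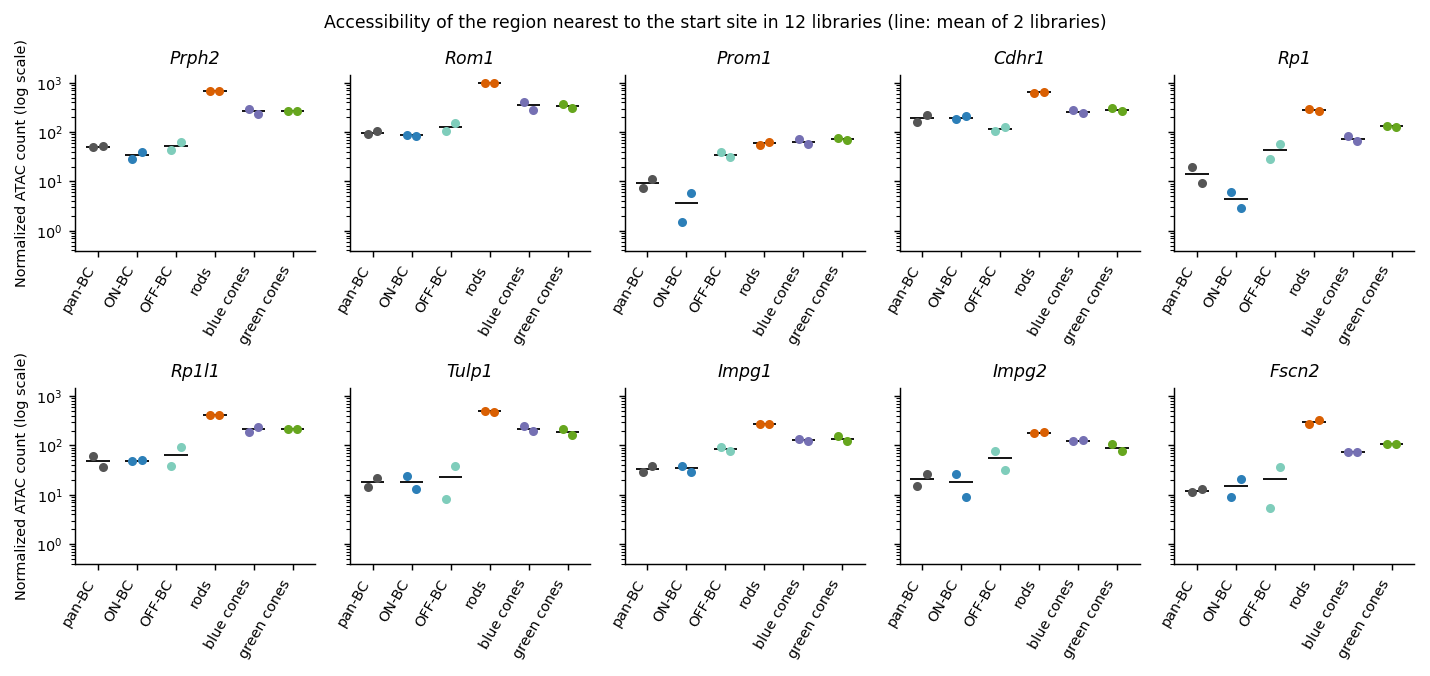
Normalized ATAC count (log scale) of the region nearest to the start site of each outer segment gene in 12 libraries, with 1 point per library and a line at the mean of 2. Rods are above pan-BC and ON-BC for every gene, and *Cdhr1* has the highest pan-BC level.

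Against blue cones 32 of 81 regions were called, 27 lower and 5 higher in pan-BC, where 35.9% of all regions were called, 7.13% lower and 28.8% higher. At start sites 10 of 12 were lower, against 3.76% of all start-site regions, and those not called were *Cdhr1* and the second *Rom1* window. Between rods and blue cones 6 regions were called, all higher in rods and all away from start sites, where 10% of all regions were called and 1.46% higher. Of the 6, 3 were assigned to *Prph2*, 2 to *Rp1* and 1 to *Fscn2*. At the start sites limma called 0 of 12, with 3 at an unadjusted p under 0.05 (*Fscn2*, *Rom1* and *Rp1*), and edgeR called 3, while limma called 6.59% of all start-site regions.

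Between ON-BC and OFF-BC 10 regions were called, 9 lower in ON-BC and 1 higher, where 7.39% of all regions were called, 2.8% lower and 4.58% higher. At start sites 2 were called, both lower in ON-BC, against 0.903% of all start-site regions. The *Prom1* region at chr5:44101665-44101864 had 1.49 and 5.86 normalized ATAC counts in the ON-BC libraries against 39.1 and 31.2 in those of OFF-BC, with 54.5 and 63.7 in rods (ON-BC versus OFF-BC, -3.12 ± 0.46, adjusted p = 0.00453). The *Rp1* region at chr1:4360245-4360444 had 5.97 and 2.93 in the ON-BC libraries against 28.3 and 58.4 in those of OFF-BC, with 299 and 262 in rods (-2.99 ± 0.41, adjusted p = 0.00301). Both were lower in ON-BC, while the RNA of these genes was not called and its mean was higher in ON-BC. The number of called regions was 2 without OFF-BC replicate 1 and 5 without OFF-BC replicate 2.

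For *Prph2*, a pair of distal regions moved in opposite directions. The region 17684 bases downstream of the start site (chr17:46928062-46928261) had 44.3 ± 3.57 normalized ATAC counts in ON-BC against 9.21 ± 3.5 in OFF-BC (SD, n = 2), with a log2 difference of 2.19 ± 0.31 (SE, adjusted p = 0.0138), and was the 1 region called higher in ON-BC. It was also higher in rods, at 586 ± 41.6, than in blue cones, at 93.4 ± 31.4 (2.67 ± 0.31, adjusted p = 0.000625). The intronic region 4868 bases downstream had 15.5 ± 1.26 in ON-BC against 55.1 ± 2.15 in OFF-BC, with 679 ± 1.46 in rods (SD, n = 2), and was lower in ON-BC than in OFF-BC (-1.76 ± 0.24, adjusted p = 0.0388). The RNA of *Prph2* was higher in ON-BC, the direction of the first region and not of the second.

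The 4 regions higher in pan-BC than in rods lay near *Prom1* and *Rp1*, genes whose RNA was 113-fold and 112-fold lower in pan-BC. Distances are to the nearest start site, of which *Prom1* has 2 and *Rp1* has 3. The region at position -49886 from the upstream *Prom1* start site had 68.0 and 121 normalized ATAC counts in pan-BC libraries. It had 82.1 and 120.1 in those of ON-BC and 24.2 and 18.5 in those of OFF-BC. Both rod libraries were at 0, so that pan-BC was at least 43.2-fold higher against a floor of 3 reads per library. The region at position -21284 from the *Rp1* start site had 40.0 and 58.2 in pan-BC and 0 and 1.36 in rods (5.0 ± 0.77, adjusted p = 0.000143). The other 2 regions were intronic. They lay 45986 bases downstream of the second *Prom1* start site (3.03 ± 0.53, adjusted p = 0.00187) and 27674 bases downstream of the nearest *Rp1* start site (3.04 ± 0.66, adjusted p = 0.00720). Assignment to the nearest start site does not show which gene a region acts on.

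The sequences of the intronic *Prph2* region, lower in pan-BC, and of the upstream *Prom1* region, higher in pan-BC, are shown as the clearest of each direction, on the plus strand of GRCm38 with TAATC or GATTA in capitals.
Prph2 intron, chr17:46915246-46915445: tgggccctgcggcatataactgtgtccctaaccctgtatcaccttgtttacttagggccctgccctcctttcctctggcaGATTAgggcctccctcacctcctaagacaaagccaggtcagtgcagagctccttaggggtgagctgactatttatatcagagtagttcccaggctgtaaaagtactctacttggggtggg
Prom1 upstream, chr5:44151522-44151721: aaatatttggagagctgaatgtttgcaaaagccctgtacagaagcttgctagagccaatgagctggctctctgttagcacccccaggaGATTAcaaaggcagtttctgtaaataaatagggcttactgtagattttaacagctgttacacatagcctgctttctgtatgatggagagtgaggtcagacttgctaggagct

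Each of these 2 regions held 1 TAATC core. Over the 82 regions of the members 52.4% held TAATC, against 40.6% of all 110715 regions, and 24.4% held TAATT, against 24.9%. The 52 regions called lower in pan-BC against rods held TAATC in 27 (51.9%) and TAATT in 13, and the 4 higher ones in 2 and 3. The 26 regions not called or not tested held TAATC in 14 (53.8%) and TAATT in 4.

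Peaks that the authors had called in each library, with MACS2, gave a further view of the 12 start-site regions. All 12 overlapped a peak in each rod and blue cone library, and 12 and 11 did in green cones, against 6 and 8 in pan-BC libraries, 5 and 6 in those of ON-BC, and 8 and 10 in those of OFF-BC. A peak was present in every bipolar library at *Cdhr1*, *Impg1*, *Rp1l1* and the *Rom1* exon. At *Fscn2*, *Rp1* and both *Prom1* regions no pan-BC or ON-BC library had a peak, while 1 OFF-BC library did at *Fscn2*, *Rp1* and the *Prom1* region nearest the start. The median fold enrichment of these peaks over local background was 17.3 and 16.8 in the rod libraries, 12 and 14.5 in those of blue cones, and 7.76 and 8.84 in those of pan-BC. Each median covers only the regions with a peak in that library, so the sets of regions differ between populations. In rods both *Rom1* windows lay in the same peak, as did both *Prom1* regions, so the 12 regions are not 12 separate peaks. Rod libraries had fewer peaks in all, at 40829 and 44540, than pan-BC libraries at 71698 and 94468.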

How the data were processed

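RNA-seq and ATAC-seq were carried out on cells sorted from adult mouse retina. Following the submitters' processing notes and the methods of the study, the authors aligned RNA reads to GRCm38 with STAR, used HTSeq to count reads per RefSeq gene, and aligned ATAC reads with Bowtie2, called peaks in each library with MACS2 and counted reads in regions of a union of peaks with featureCounts. The RNA library kit does not mark strand. The deposited tables hold signal values, which are counts that the authors divided by 1 size factor per library. This was checked: all 230384 gene values and 1212862 region values above 0 fell within 0.01 read of a whole multiple of the step of their library (100%). The deposited peak files hold a fold enrichment, p- and q-values as −log10 and a score that MACS2 made for the authors, and only positions and fold enrichment were used. No column was left unassigned, and none held the authors' own comparisons.

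As planned for normalized values, limma (3.58.1, in R 4.3.3) was used on log2(value + 1) with 1 level per population over all libraries of an assay, treat against a log2 fold change of 1 and a trended prior. Filtering by edgeR (4.0.16) filterByExpr on the recovered reads left 14024 of 24062 genes and 108448 of 110715 regions. Tests used Benjamini-Hochberg adjustment over all of them at 0.05. The alternatives were edgeR and DESeq2 (1.42.0) on recovered reads, other pseudocounts, no filter, TMM scaling, a test against 0, only the populations compared, each replicate left out, a replicate block and, for regions, start sites only or cones as 1 level. The fits were tested on simulated counts. Replicates differed by more than sampling noise. Depth of 12329548 to 26266746 reads for RNA and 4176776 to 12345845 for ATAC limits low values, and a floor of 3 reads per library bounds ratios against 0, for counting error only.

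The members, and the lists of related genes, paralogs and markers, were chosen with earlier results of these data known. All 10 members were named, with the 2 genes most like each, up to 3 of the largest changes of each list and every gene of a count of 5 or fewer, the start-site region of each member and its region of largest change. The regions of *Prph2* at 17684 and 4868 bases and the intronic regions of *Prom1* and *Rp1* were named after their values were seen. Some genes that this rule would name are not reported here. Regions were assigned to the nearest RefSeq start site within 50000 bases, or to a member if they lay in its start-site window. Promoter sequences are from RefSeq (GRCm38.p6). Exon lengths are from the RefSeq annotation. *Prcd* is listed in the table as Gm11744 and *Rp2* as Rp2h.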

Additional observations from a re-analysis of the deposited data

How the results depend on the processing

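Every pan-BC difference from rods kept its direction and its call for all 10 members under all 15 alternatives, as did 9 of 10 from blue cones, where *Rom1* was called only against 0. The number of members called between ON-BC and OFF-BC, 1, became 0 with no filter on low values, with DESeq2 and with only the populations compared, 4 against 0, and 0 to 4 when a replicate was left out. ON-BC versus OFF-BC differences changed sign, without passing the test, for *Cdhr1* without ON-BC replicate 2 (0.04) or OFF-BC replicate 3 (0.10, range over replicates left out -0.18 to 0.10), *Rp1l1* (0.34, range -0.96 to 0.34) and *Tulp1* (0.30, range -1.16 to 0.30) without OFF-BC replicate 3, and *Impg2* without OFF-BC replicate 1 (-0.30, range -0.30 to 0.97). The cause of these changes was not tested. Against 0, where less is asked of a difference, related genes called became 20 for pan-BC versus blue cones, 9 for ON-BC versus OFF-BC and 14 for rods versus blue cones, paralogs became 3 for ON-BC versus OFF-BC and 5 for rods versus blue cones, and regions became 53, 25 and 40. Paralogs between ON-BC and OFF-BC were 0 to 1 with a replicate left out. Regions between ON-BC and OFF-BC ran from 2 to 8 with a replicate left out, at 2 and 5 without OFF-BC replicates 1 and 2, and those between rods and blue cones went to 2 without either rod replicate, against 10 with a pseudocount of 4 and 19 with edgeR. Start sites alone gave 11, 10, 2 and 0 called regions for the 4 comparisons in the order pan-BC versus rods, pan-BC versus blue cones, ON-BC versus OFF-BC and rods versus blue cones. TMM scaling changed no member's call.

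Same-numbered ON-BC and OFF-BC libraries share an age in the labels, but their deviations did not correlate throughout (-0.08, 0.22 and -0.06). For 2 of the 3 ON-BC libraries the best correlation was with another number, so the numbers were not taken to pair the samples. ON-BC replicate 1 correlated best with OFF-BC replicate 3 (0.14), and ON-BC replicate 3 with OFF-BC replicate 1 (0.21). Whether libraries matched in this way share a preparation was not tested, and the block below used the numbers of the labels. With a replicate block, calls over all genes between ON-BC and OFF-BC went from 919 to 907, the members called stayed at 10, 9 and 1 in the first 3 comparisons and went from 4 to 3 between rods and blue cones, where *Cdhr1* had an adjusted p of 0.0527. Low counts limit *Impg1*, *Fscn2* and *Rp1l1* in OFF-BC, and 2 ATAC libraries per population limit all regions.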

Other observations

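A pair of further green cone ATAC libraries, sorted a second time, had peak lists only and entered no comparison. In each, 10 of the 12 start-site regions of the outer segment genes overlapped a peak, against 12 and 11 in the green cone libraries sorted once. *Cdhr1*, *Fscn2*, *Impg1*, *Impg2*, *Rp1l1*, *Tulp1*, the *Rom1* exon and the *Prom1* region at position -350 from its start site had a peak in both, and *Prph2*, *Rp1*, the other *Prom1* region and the second *Rom1* window in 1 of 2. Their median fold enrichment over local background was 7.32 and 8.60, against 12.1 and 9.69 in the green cones sorted once. Each median covers only the start-site regions with a peak in that library. The number of peaks in all was 43221 and 29410.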
